A study of Mus musculus with 42 samples.

Results

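The 8 heat shock genes described here were Hspa1a, Hspa1b, Hspa8, Dnajb1, Hsph1, Hspb1, Hsp90aa1 and Bag3, taken by name out of 44674 genes in the deposited count table. All 8 were among the 21168 genes with enough counts to be tested. The study exposed male C57BL/6NCrl mice, 8 to 12 weeks old, to an odour for 1 h and then sequenced RNA of the main olfactory epithelium, the sheet of nasal tissue that holds the olfactory sensory neurons. The pools fell into a no odour group (5 pools) and an NCD group given the odour of normal chow (6 pools). There was also a BFD group given the odour of a bacon-flavoured diet and labelled Bacon (5 pools, "bacon" from here on), and an HFD group given the odour of a lard-based high-fat diet (5 pools). Each pool held 4 epithelia and gave 2 libraries: an input of whole tissue RNA, and a pulldown of the RNA on ribosomes caught with an antibody against phosphorylated ribosomal protein S6, a mark that neurons gain when they are active (pS6-ribotrap). Because 4 animals were homogenised together, differences between single animals cannot be seen, and p-values measure the spread between these pools. The labels give no date, batch or order of dissection.

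Heat shock proteins are chaperones: they bind unfolded or newly made proteins and help them fold, refold or be degraded. When unfolded proteins build up, the transcription factor HSF1 is released from chaperones, forms trimers and binds heat shock elements, inverted repeats of the bases GAA, in the promoters of chaperone genes. Hspa1a and Hspa1b encode the stress-inducible HSP70, whereas Hspa8 encodes the HSP70 that most cells make at all times. In the olfactory epithelium HSP70 has long been described in sensory neurons and supporting cells that meet inhaled chemicals.

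The 21 inputs held between 24839555 and 36781553 counts (median 31457188) and the 21 pulldowns between 25392812 and 36738330 (median 30313284). Levels below are CPM (counts scaled to the library total) after TMM scaling, which sets libraries of different composition on a common scale. Omp, the marker of mature olfactory sensory neurons, stood at 4662 to 8815 CPM over the inputs and 6097 to 8865 CPM over the pulldowns, as the labelled tissue should show. Hspa1a and Hspa1b were counted thinly, with a median of 174 and 90.9 estimated counts in the inputs and 123 and 60.6 in the pulldowns. The other 6 genes had medians from 1396 (Hspb1) to 42068 (Hspa8) in the inputs and from 446 to 36070 in the pulldowns.

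Levels of 5 of the genes are uncertain because their transcripts resemble those of other genes. Of all stretches of 31 bases in Hspa1a, 63.8% also occurred in Hspa1b, and 67.6% of those in Hspa1b occurred in Hspa1a, so that counting could split reads between these near-identical copies in any proportion and their sum is given beside each. Hspa1a (chr17:34969190-34972156, minus strand, GRCm38) also overlaps Gm20481 on the opposite strand, and since the counting is not stated to use strand, reads of the pair cannot be told apart. Gm20481 held counts equal to 1.1% of those of Hspa1a in the inputs. The pseudogenes Gm15459, Hsp25-ps1 and Gm12346 shared 38.6%, 52.3% and 46.7% of the stretches in Hspa8, Hspb1 and Hsp90aa1 but held counts equal to 0.188%, 0.0373% and 0.718% of theirs in the inputs. Dnajb1 shared 0.444% of its stretches with other genes, and Hsph1 and Bag3 shared 0.

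Per kilobase of exon, the order of levels in the no odour inputs ran from Hspa8 (279 ± 25 CPM per kb, SD, n = 5) through Hsp90aa1 (76.5 ± 9.07), Dnajb1 (61 ± 6.95), Hspb1 (39.9 ± 12.2), Bag3 (22.6 ± 1.32) and Hsph1 (11.5 ± 0.445) to Hspa1a (1.64 ± 0.305) and Hspa1b (0.827 ± 0.0886). On that scale Hsp90aa1, Dnajb1 and Hspb1 overlapped with their neighbours in the order, and the other neighbours did not. The constitutive HSP70 gene Hspa8 was thus the most abundant of the 8 per kilobase and the inducible pair the least. In the no odour pulldowns the ends of the order were the same, with Hspa8 at 286 ± 8.6 and Hspa1b at 0.5 ± 0.0523 CPM per kb, but Bag3 (18 ± 1.67) stood above Hspb1 (16.2 ± 1.48), with overlap between these and between Hspb1 and Hsph1 (13.6 ± 1.53).

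The first question was whether odours move these mRNAs in the whole tissue. In the inputs, NCD odour against no odour gave 6 of the 8 genes higher and 0 lower at an adjusted p under 0.05 (edgeR, quasi-likelihood, p adjusted over all genes by Benjamini-Hochberg). Of all 21168 genes, 22.5% passed in either direction. The median log2 fold change of the 8 was 0.41, beside -0.02 over all genes. Bacon odour against no odour gave 3 of 8 (2 higher, 1 lower; background 38.5%; medians 0.06 and 0.01). HFD odour against no odour gave 3 of 8, all higher (background 20.7%; medians 0.20 and -0.01). The mean of the 3 odours against no odour gave 5 of 8, all higher (background 36.0%; medians 0.28 and -0.01). These comparisons share the 5 no odour pools, so they are set side by side and not read as separate support. Compared directly, bacon lay below NCD for 5 of 8 genes (background 2.41%; medians -0.39 and 0.00) and HFD below NCD for 2 of 8 (background 0.241%; medians -0.16 and 0.01). HFD against bacon gave 0 of 8 by edgeR (background 0.463%), with 5 at an unadjusted p under 0.05 (18.2% of all genes) and 3 of 8 by DESeq2 (3.09% of all genes).

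The pulldowns, which hold mRNA on phosphorylated ribosomes, gave 4 of 8 genes higher and 0 lower for NCD against no odour (background 18.2%; median log2 fold change 0.17, beside -0.00 over all genes). Bacon gave 2 of 8 (1 higher, 1 lower; background 16.3%; medians -0.01 and 0.03). HFD gave 1 of 8, higher (background 20.1%; medians -0.04 and -0.00). The mean of the odours gave 4 of 8, all higher (background 25.7%; medians 0.06 and 0.01). Bacon lay below NCD for 4 of 8 genes (background 0.402%; medians -0.33 and 0.01) and HFD below NCD for 3 of 8 (background 0.987%; medians -0.22 and 0.00). HFD against bacon gave 0 of 8 by edgeR (background 0.770%), with 0 at an unadjusted p under 0.05 (11.9% of all genes) and 0 by DESeq2 (1.46%). In both kinds of library NCD was thus the odour that set most of the 8 genes apart, from no odour and from bacon.

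The inducible HSP70 genes carried the largest differences of the 8 in both kinds of library. In the inputs, Hspa1a stood at 5.67, 3.53, 5, 4.43 and 5.65 CPM in the no odour pools and at 11.2 to 13.6 CPM (median 11.8) in the 6 NCD pools. It stood at 5.36, 4.07, 5.17, 5.42 and 5.62 CPM in the bacon pools and at 4.47, 3.97, 4.56, 4.96 and 5.31 CPM in the HFD pools. The NCD inputs were all high and the inputs of the other 3 groups overlapped one another well below them. Hspa1b, its neighbour on chromosome 17 (chr17:34956436-34959238, minus strand), stood at 2, 2.29, 2.46, 2.65 and 2.19 CPM without odour and at 5.6 to 8.17 CPM (median 5.89) under NCD. It stood at 2.62, 2.33, 2.69, 2.54 and 3.04 CPM under bacon and at 2.38, 2.72, 2.58, 2.73 and 2.99 CPM under HFD. The picture was that of Hspa1a: NCD inputs apart from and above all others, with the rest overlapping.

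The same pools told the same in the pulldowns. Hspa1a stood at 3.48, 4.3, 4.22, 3.64 and 3.83 CPM in the no odour pulldowns and at 8.69 to 11.7 CPM (median 9.94) in the NCD pulldowns. It stood at 4.31, 3.45, 3.75, 4.49 and 3.74 CPM under bacon and at 3.58, 3.26, 2.94, 4.29 and 3.77 CPM under HFD. For Hspa1b the no odour pulldowns held 1.42, 1.33, 1.34, 1.65 and 1.28 CPM and the NCD pulldowns 3.97 to 5.45 CPM (median 4.88). For both genes the NCD pulldowns lay above every other pulldown. Hspa1b was at 1.82, 1.52, 1.66, 1.34 and 2 CPM under bacon and more spread under HFD, at 1.16, 1.6, 2.2, 2.48 and 1.28 CPM, with both groups overlapping the no odour pulldowns.

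**Figure D1:**
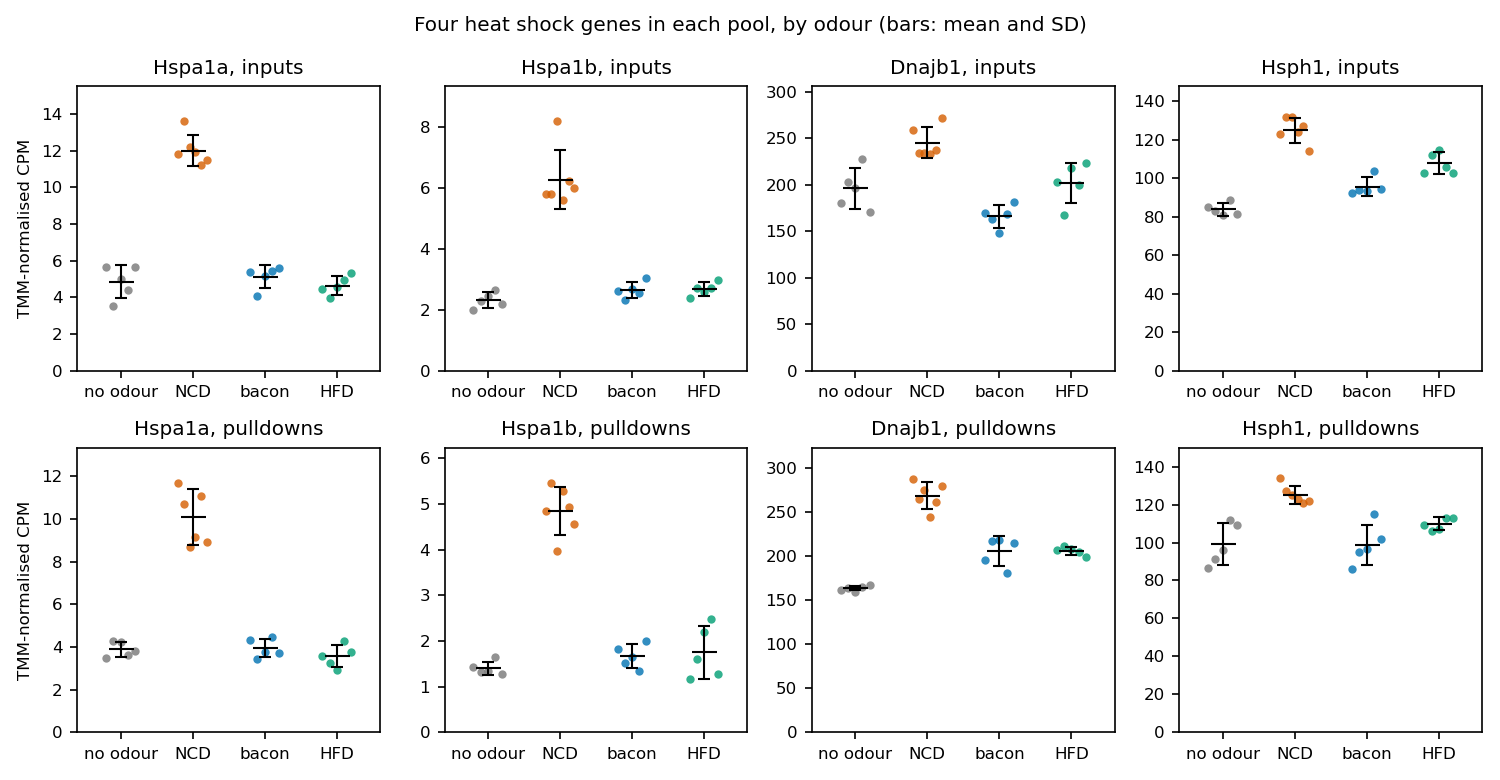
Levels of Hspa1a, Hspa1b, Dnajb1 and Hsph1 (CPM after TMM scaling, vertical axes starting at 0) in every input and pulldown, by odour, with 1 point per pool and bars of mean and SD. The NCD pools of Hspa1a and Hspa1b lie above all other pools in both kinds of library, and so do the NCD pools of Dnajb1.

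Set against no odour, NCD inputs were higher by a log2 fold change of 1.30 ± 0.11 (SE) for Hspa1a (edgeR adjusted p = 1.86e-08, 6 of 6 NCD pools above the no odour median) and 1.43 ± 0.11 for Hspa1b (edgeR adjusted p = 7.4e-09, 6 of 6). These were the p-values ranked 7 and 6 of 21168. In the pulldowns the log2 fold changes were 1.37 ± 0.11 for Hspa1a (edgeR adjusted p = 5.69e-09, 6 of 6) and 1.78 ± 0.17 for Hspa1b (edgeR adjusted p = 7.24e-08, 6 of 6). There the pair ranked 35 and 55 by p, behind Dnajb1 at rank 10. The sum of both copies, which does not depend on how reads were split between them, rose 2.54-fold in the inputs (log2 1.34 ± 0.09, edgeR adjusted p = 1.91e-10), from 7.17 ± 0.812 to 18.3 ± 1.26 CPM (mean ± SD). In the pulldowns it rose 2.81-fold (log2 1.49 ± 0.10, edgeR adjusted p = 1.72e-10), from 5.3 ± 0.302 to 14.9 ± 1.61 CPM. Bacon and HFD gave summed levels of 7.77 ± 0.827 and 7.34 ± 0.659 CPM in the inputs and 5.62 ± 0.446 and 5.31 ± 0.831 CPM in the pulldowns. Against no odour none of those differences passed, with log2 fold changes of 0.11 ± 0.09 and 0.03 ± 0.09 in the inputs and 0.10 ± 0.11 and 0.01 ± 0.11 in the pulldowns (edgeR adjusted p = 0.362, 0.859, 0.571 and 0.972).

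The direct comparisons of odours, which do not use the no odour level, tested the gap itself. HFD inputs lay below NCD inputs by a log2 fold change of -1.37 ± 0.11 for Hspa1a (edgeR adjusted p = 4.16e-08, 5 of 5 HFD pools below the NCD median) and -1.22 ± 0.11 for Hspa1b (edgeR adjusted p = 2.9e-07, 5 of 5), ranks 1 and 3 by p of the 21168 genes. Bacon inputs lay below NCD inputs by -1.23 ± 0.11 and -1.24 ± 0.11 (edgeR adjusted p = 1.06e-07 and 1.34e-07, 5 of 5 each), ranks 3 and 4. In the pulldowns, HFD was below NCD by -1.49 ± 0.11 for Hspa1a and -1.47 ± 0.16 for Hspa1b (edgeR adjusted p = 9.63e-09 and 5.99e-06, 5 of 5 each, ranks 3 and 13), and bacon by -1.33 ± 0.11 and -1.52 ± 0.17 (edgeR adjusted p = 6.62e-08 and 4.78e-06, 5 of 5 each, ranks 4 and 10). All these contrasts share the 6 NCD pools. Genes of other kinds stood beside the pair in them, named after their values were seen: the immunoglobulin genes Igha (1.08, rank 2) and Ighg2b (2.97, rank 5) and Crisp1 (1.73, rank 4) were higher in HFD than NCD inputs. In bacon against NCD inputs Ighg2c (4.45, rank 1) and Igha (1.08, rank 2) had smaller p than Hspa1a. In the pulldowns Crisp1 (2.10) and Dnase1 (1.58) stood ahead of Hspa1a for HFD against NCD, and Olfr170 (2.29), Ighg2c (4.68) and Mup5 (-1.53) for bacon against NCD. No marker list was made for plasma cells or glands, and the part of cell or tissue content in the differences of the pair was not tested. Over all settings tried, left-out pools included, the log2 fold change of NCD against no odour ranged from 1.20 to 1.36 for Hspa1a and 1.34 to 1.51 for Hspa1b in the inputs, with adjusted p at most 0.000146 and 7.9e-05.

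Few genes of the table behaved this way. Only 9 of 21168 genes (0.0425%) had every NCD input above every other input, and 3 of them were Hspa1a, Hspa1b and Dnajb1. The rest, named after their values were seen, were Appbp2, Cdk7, Fmo6, Gk5, Hdac2 and Tfrc. Likewise 9 genes (0.0425%) had every NCD pulldown above every other pulldown, and 4 of them were Hspa1a, Hspa1b, Dnajb1 and Hsph1, beside 1810013L24Rik, Olfr272, Orc2, Ppa1 and Ubp1, named in the same way. None of the 8 heat shock genes had all bacon libraries highest (background 0.940% in inputs and 0.0756% in pulldowns), all HFD libraries highest (0.0709% and 0.463%) or all no odour libraries highest (1.37% and 1.96%). For the other gaps without overlap given below, such as no odour below every odour, the share of all genes was not counted.

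Promoter sequence was read because Hspa1a, Hspa1b, Dnajb1 and Hsph1 rose together under NCD. Promoters from RefSeq (build GRCm38.p6, 250 bases before to 50 after a gene start) were at hand for 6 of the 8 genes, all but Hspa8 and Hsp90aa1. They were searched for GAANNTTC and TTCNNGAA, a pair of inverted GAA repeats as in a heat shock element. Each motif is its own reverse complement, so that both strands are covered at once, and neighbouring matches may share bases. GAANNTTC occurred in 7.86% and TTCNNGAA in 8.52% of 32851 promoters, and at least 1 of them in 15.1%. Of the 6 genes, 5 had at least 1 match and Dnajb1 had 0 in the windows of its 2 listed starts. The promoters of Hspa1a (chr17:34972107-34972406, minus strand) and Hspa1b (chr17:34959189-34959488, minus strand) differed at 4 of 300 bases and held GAANNTTC at position -104 from the gene start. Hsph1 (chr5:149636287-149636586, minus strand) had 3 matches, 2 of which share bases. Capitals mark the matches in these sequences. Shown are the 3 genes with a match whose NCD pulldowns all lay above every other pulldown. Dnajb1, with 0 matches and not shown, had that pattern in both kinds of library, and Hsph1 lacked it in the inputs. A match is a description of letters and not a site of binding.
Hspa1a: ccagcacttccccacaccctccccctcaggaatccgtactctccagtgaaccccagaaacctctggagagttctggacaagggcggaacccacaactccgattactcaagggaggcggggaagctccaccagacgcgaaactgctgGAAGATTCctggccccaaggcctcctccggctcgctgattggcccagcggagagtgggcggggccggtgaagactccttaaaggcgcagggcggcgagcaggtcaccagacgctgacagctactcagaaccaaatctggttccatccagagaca
Hspa1b: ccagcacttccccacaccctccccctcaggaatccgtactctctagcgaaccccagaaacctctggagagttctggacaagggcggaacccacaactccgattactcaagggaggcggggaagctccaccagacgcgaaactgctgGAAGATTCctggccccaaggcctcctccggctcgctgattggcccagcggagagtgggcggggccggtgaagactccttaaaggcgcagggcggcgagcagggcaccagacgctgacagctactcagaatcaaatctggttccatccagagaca
Hsph1: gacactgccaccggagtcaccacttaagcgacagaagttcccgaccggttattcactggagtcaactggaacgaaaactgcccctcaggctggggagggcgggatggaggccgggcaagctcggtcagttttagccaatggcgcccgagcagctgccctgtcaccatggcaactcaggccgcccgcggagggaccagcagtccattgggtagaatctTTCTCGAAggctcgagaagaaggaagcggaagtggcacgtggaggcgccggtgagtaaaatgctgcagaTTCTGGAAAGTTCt

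Dnajb1 encodes an HSP40, the J-domain partner that hands unfolded proteins to HSP70 and speeds its ATP cycle (chr8:83608193-83612653, plus strand). Its pulldowns stood at 162, 164, 160, 165 and 167 CPM without odour and at 245 to 288 CPM (median 270) under NCD. They stood at 196, 218, 219, 181 and 215 CPM under bacon and at 207, 212, 208, 205 and 199 CPM under HFD. Every odour pulldown lay above every no odour pulldown, and the NCD pulldowns lay above all others. The inputs were ordered differently, with 180, 203, 196, 228 and 171 CPM without odour and 233 to 272 CPM (median 235) under NCD. Under bacon the inputs held 170, 163, 148, 169 and 181 CPM and under HFD 203, 168, 218, 200 and 223 CPM. NCD inputs were again the highest, while bacon inputs reached below the no odour inputs and overlapped with their low end.

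In the pulldowns Dnajb1 rose with each odour against no odour: by a log2 fold change of 0.72 ± 0.05 under NCD (edgeR adjusted p = 1.9e-10, 6 of 6 pools), 0.34 ± 0.05 under bacon (edgeR adjusted p = 3.37e-05, 5 of 5) and 0.34 ± 0.05 under HFD (edgeR adjusted p = 2.76e-05, 5 of 5). In the inputs it rose under NCD by 0.32 ± 0.08 (edgeR adjusted p = 0.00588, 6 of 6) and fell by 0.23 ± 0.08 under bacon (edgeR adjusted p = 0.0248, 5 of 5), and HFD gave 0.05 ± 0.08 (edgeR adjusted p = 0.73). Directly compared, bacon lay below NCD by -0.56 ± 0.08 in the inputs and -0.37 ± 0.05 in the pulldowns (edgeR adjusted p = 0.000243 and 4.22e-05, 5 of 5 each), and HFD by -0.37 ± 0.05 in the pulldowns (edgeR adjusted p = 3.46e-05, 5 of 5). HFD against NCD in the inputs did not pass (-0.28 ± 0.08, edgeR adjusted p = 0.272, 5 of 5), nor did HFD against bacon (0.28 ± 0.08, 0.0902). The latter passed by DESeq2 (0.0361), in the fit on those groups alone (0.0478), and without HFD replicate 2 (0.0236) or no odour replicate 4 (0.0136), while with the ribosomal RNA share in the model it was 0.13 (0.472). The fall under bacon in the inputs was lost without bacon replicate 3 (edgeR adjusted p = 0.0799) and without no odour replicate 4 (0.0538), and with the ribosomal RNA share of each library in the model the value was 0.30 (edgeR adjusted p = 0.618). With the replicate number as a block the value was -0.23 and the call was lost (edgeR adjusted p = 0.0502).

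Hsph1 encodes HSP110, a relative of HSP70 that exchanges its nucleotide and helps to dissolve aggregates (chr5:149614287-149636376, minus strand). In the inputs it stood at 85.2, 82.9, 81.2, 88.9 and 81.3 CPM without odour, at 114 to 132 CPM (median 125) under NCD, at 92.2, 94.2, 93.5, 104 and 94.3 CPM under bacon and at 103, 112, 115, 106 and 103 CPM under HFD. All 3 odours lay above no odour without overlap, with NCD highest, though the lowest NCD pool fell below the highest HFD pool. In the pulldowns it stood at 86.4, 91.2, 96.3, 112 and 109 CPM without odour and at 121 to 134 CPM (median 124) under NCD. Bacon (86.3, 94.9, 96.6, 115 and 102 CPM) and HFD pulldowns (109, 106, 107, 113 and 113 CPM) overlapped with no odour, and NCD pulldowns lay above all others.

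For Hsph1 the inputs rose by a log2 fold change of 0.58 ± 0.05 under NCD (edgeR adjusted p = 1.43e-07, 6 of 6), 0.36 ± 0.06 under HFD (edgeR adjusted p = 0.000292, 5 of 5) and 0.19 ± 0.06 under bacon (edgeR adjusted p = 0.0087, 5 of 5), and bacon lay below NCD by -0.39 ± 0.05 (edgeR adjusted p = 0.000202, 5 of 5). HFD lay -0.22 ± 0.05 from NCD, which did not pass (edgeR adjusted p = 0.125, 5 of 5) but did by DESeq2 (0.00316) and without no odour replicate 4 (0.0276). HFD against bacon (0.17 ± 0.06, edgeR adjusted p = 0.121) likewise passed by DESeq2 (0.0383) and without that pool (0.0271). In the pulldowns NCD gave 0.34 ± 0.07 against no odour (edgeR adjusted p = 0.00105, 6 of 6) and bacon -0.33 ± 0.07 against NCD (edgeR adjusted p = 0.0182, 5 of 5). The latter was lost without bacon replicate 2 (0.0643) or 3 (0.0708) or NCD replicate 1 (0.0641), and in the fit on those groups alone (0.0615). HFD pulldowns against NCD did not pass with all pools (-0.18 ± 0.07, edgeR adjusted p = 0.256) but did in the fit on those groups alone (-0.19, 0.0115). The rise of the odours together in the pulldowns (0.17 ± 0.06, edgeR adjusted p = 0.0341, 14 of 16 pools) was lost without bacon replicate 5 (0.0515) or no odour replicate 1 (0.151), 2 (0.125) or 3 (0.086). With the ribosomal RNA share in the model, the rise under NCD was 0.49 in the inputs (edgeR adjusted p = 0.00303) and 0.29 in the pulldowns (0.0611). In that model bacon gave 0.06 (0.93) and HFD 0.27 (0.275) in the inputs, and the odours together 0.11 (0.463) in the pulldowns, so these calls were lost.

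**Figure D2:**
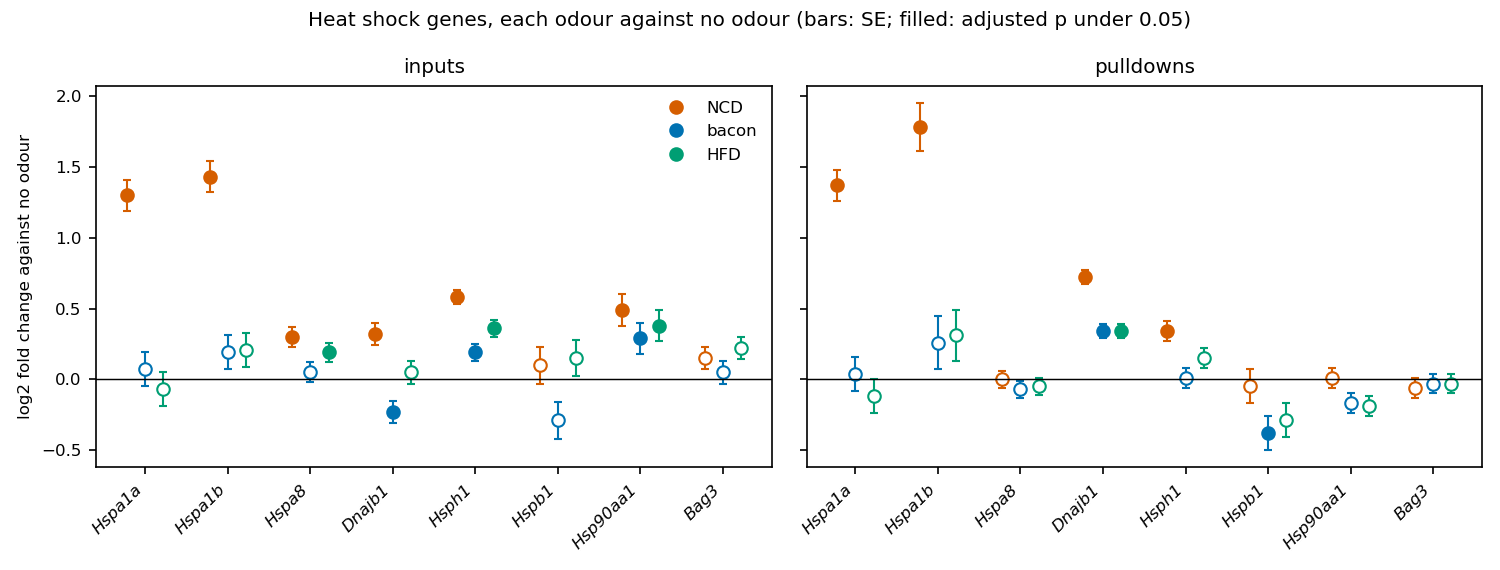
Log2 fold change with its standard error for the 8 genes in inputs and pulldowns, for each odour against no odour, with filled points at an adjusted p under 0.05. Hspa1a and Hspa1b stand at 1.30 and 1.43 in the NCD inputs and at most at 0.31 under bacon and HFD.

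Hspa8, the constitutive HSP70 that folds new proteins and uncoats vesicles (chr9:40800984-40810087, plus strand), ranged from 1122 to 1373 CPM in the no odour inputs, 1437 to 1567 under NCD, 1180 to 1386 under bacon and 1285 to 1438 under HFD. The NCD inputs lay above the no odour and bacon inputs and just touched the HFD inputs. The rise was 0.30 ± 0.07 on the log2 scale for NCD (edgeR adjusted p = 0.0031, 6 of 6) and 0.19 ± 0.07 for HFD (edgeR adjusted p = 0.0445, 5 of 5), and bacon lay -0.26 ± 0.07 from NCD (edgeR adjusted p = 0.0392, 5 of 5). Pulldown levels overlapped in all groups, from 1078 to 1339 CPM, and no pulldown comparison passed. The HFD call in the inputs was lost, at adjusted p of 0.0515 to 0.117, without any of bacon replicates 1, 2 and 5, HFD 3, 5 and 6, NCD 2 to 5 or no odour 1 to 3. It was also lost with the ribosomal RNA share in the model (0.25, 0.457), without a filter (0.0717) and in the fit on those groups alone (0.199). The call of bacon against NCD was lost, at 0.0695 to 0.107, without bacon 1, 2, 3 or 5 or NCD 2, 3, 5 or 6, and also with the ribosomal RNA share in the model (-0.23, 0.174), without a filter (0.0536) and with the replicate number as a block (0.0578). The mean rise over odours in the inputs (0.18 ± 0.06, edgeR adjusted p = 0.0125, 16 of 16) was lost without no odour replicate 2 (0.0612) and with the ribosomal RNA share in the model (0.24, 0.584).

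Hsp90aa1 encodes the inducible form of cytosolic HSP90, which matures kinases and hormone receptors and holds HSF1 inactive (chr12:110690605-110702728, minus strand). Its inputs ranged from 250 to 342 CPM without odour, 372 to 495 under NCD, 324 to 431 under bacon and 308 to 482 under HFD. Its pulldowns ranged from 328 to 374, 313 to 364, 269 to 375 and 283 to 322 CPM in the same order. NCD inputs lay above no odour inputs and the other odours overlapped with them. HFD pulldowns lay below all no odour pulldowns, while NCD and bacon pulldowns overlapped with them. Inputs rose under NCD by 0.49 ± 0.11 (edgeR adjusted p = 0.00292, 6 of 6), under HFD by 0.38 ± 0.11 (edgeR adjusted p = 0.0155, 5 of 5) and under bacon by 0.29 ± 0.11 (edgeR adjusted p = 0.0394, 5 of 5). With the ribosomal RNA share in the model these were 0.13, -0.01 and -0.26 (edgeR adjusted p = 0.843, 0.99 and 0.788). The HFD call was lost without HFD replicate 2 (0.0645), and the bacon call without bacon 3 (0.129) or 4 (0.0982) or no odour 1 (0.0722), 2 (0.136) or 3 (0.0682). Both calls were lost in the fit on the groups compared only (edgeR adjusted p = 0.0786 for HFD and 0.0539 for bacon). The bacon call was also lost without a filter (0.0687) and with the replicate number as a block (0.0578). No pulldown comparison passed in the edgeR fit with all pools. HFD against no odour (-0.19 ± 0.07, edgeR adjusted p = 0.0773) passed by DESeq2 (0.0411) and in the fit on those groups alone (0.0101), as did HFD against NCD (-0.20 ± 0.07, 0.233) in the latter (0.0238). Without bacon replicate 4, bacon against no odour (-0.27, edgeR adjusted p = 0.00298), HFD against no odour (-0.19, 0.0187), bacon against NCD (-0.28, 0.0202) and the odours together (-0.15, 0.0174) did, and without bacon replicate 1 HFD against no odour did (-0.19, 0.0375).

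Hspb1 encodes a small heat shock protein that holds unfolded proteins without ATP (chr5:135887919-135889563, plus strand). In the inputs it ranged from 32.8 to 63.5 CPM without odour, 38 to 48.9 under NCD, 29.7 to 38.8 under bacon and 38 to 50.3 under HFD, and all ranges met those of the no odour group. No input comparison passed for it in the edgeR fit with all pools. HFD against bacon (0.45 ± 0.13, edgeR adjusted p = 0.102) and bacon against NCD (-0.39 ± 0.13, 0.0919) passed by DESeq2 (0.0354 and 0.0367) and in the fits on those groups alone (0.00974 and 0.000327). Much of the no odour spread came from replicate 4, the pool at 63.5 CPM, since the other 4 lay between 32.8 and 37.4. Without that pool Hspb1 passed in NCD against no odour (0.30, edgeR adjusted p = 0.0104), HFD against no odour (0.36, 0.00391), HFD against bacon (0.45, 0.000986) and bacon against NCD (-0.39, 0.00103), and the mean of odours turned from -0.01 ± 0.11 to 0.19 (0.0389). Without no odour replicate 1, bacon against no odour passed (-0.36, edgeR adjusted p = 0.0382). In the pulldowns bacon gave -0.38 ± 0.12 against no odour (edgeR adjusted p = 0.0321, 4 of 5), which was lost without bacon replicates 2 (0.092), 3 (0.0805), 4 (0.0882) or 5 (0.0605) or no odour 2 (0.0539), 3 (0.0598) or 6 (0.0774). It was also lost with the ribosomal RNA share in the model (-0.42, 0.113), with the replicate number as a block (0.0794) and in the fit on those groups alone (0.142). Bacon replicate 1 stood apart there at 18.7 CPM against 10.1 to 12.7 in the other 4 bacon pools. That pulldown also held the highest mitochondrial share of all pulldowns (0.456%), the highest sum of sustentacular markers (3606 CPM, beside 1498 to 2298 in the other bacon pools) and the lowest sum of mature neuron markers of the bacon pulldowns (17396 CPM), and their part in its Hspb1 level was not tested. Without it bacon against no odour was -0.57 (1.32e-05), and HFD against no odour (-0.29, edgeR adjusted p = 0.00765), bacon against NCD (-0.52, 0.000351) and the odours together (-0.30, 0.000531) passed as well. HFD pulldowns (12.1 to 14.7 CPM) lay below every no odour pulldown (15.2 to 19.3) without overlap, and HFD against no odour also passed in the fit on those groups alone (-0.29, 0.00958).

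Bag3, a nucleotide exchange factor that ties HSP70 to small heat shock proteins and to autophagy (chr7:128523616-128546981, plus strand), stayed within 54.5 to 62.1 CPM in the no odour inputs, 61 to 68.3 under NCD, 51.6 to 68.2 under bacon and 56.8 to 82.8 under HFD. Pulldowns spanned 40.6 to 53.7 CPM, with all groups overlapping. No comparison of its levels passed in the edgeR fit with all pools, the nearest being HFD against no odour in the inputs (0.22 ± 0.08, edgeR adjusted p = 0.054, 5 of 5). That one passed by DESeq2 (0.047) and without bacon replicate 3 (0.0452) or 4 (0.048), HFD replicate 2 (0.0259) or no odour replicate 4 (0.0495), and the odours together (0.14 ± 0.07, 0.106) passed without HFD replicate 2 (0.0483). Fewer cells of a type and less RNA per cell cannot be told apart in this bulk tissue, for Bag3 as for the other 7 genes.

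The next question was how much of each mRNA sat on phosphorylated ribosomes relative to the tissue. Without odour, 7 of the 8 genes differed between pulldown and input of the same pools (2 higher, 5 lower; background 59.5%; median log2 difference -0.28, beside 0.01 over all genes). Hspb1 was the most depleted at -1.26 ± 0.14 (edgeR adjusted p = 1.18e-07, 5 of 5 pools), followed by Hspa1b at -0.72 ± 0.16 (edgeR adjusted p = 0.000492, 5 of 5), Bag3 at -0.33 ± 0.07 (0.000478, 5 of 5), Hspa1a at -0.31 ± 0.12 (0.0226, 4 of 5) and Dnajb1 at -0.25 ± 0.07 (0.00346, 5 of 5). Hsph1 (0.23 ± 0.06, edgeR adjusted p = 0.00126, 5 of 5) and Hsp90aa1 (0.22 ± 0.08, edgeR adjusted p = 0.029, 5 of 5) were higher in the pulldown, and Hspa8 gave 0.04 ± 0.05 (edgeR adjusted p = 0.526, 4 of 5). For the sum of Hspa1a and Hspa1b the difference was -0.44 ± 0.10 (edgeR adjusted p = 0.000435). Hspa1a lost its call without no odour replicate 1 (0.148) or 6 (0.11), and Hsp90aa1 without replicate 1 (0.0511), 2 (0.15), 3 (0.0687) or 6 (0.0515). With the ribosomal RNA share in the model Hspa1a (-0.27, 0.127), Dnajb1 (-0.21, 0.0574) and Hsp90aa1 (0.12, 0.333) lost theirs. With the replicate number as a block Hspa1a (edgeR adjusted p = 0.201), Dnajb1 (0.0594) and Hsph1 (0.0842) did. In the fit on the groups compared only, Hspa1a (0.0899) and Hsp90aa1 (0.0562) were lost. Hsp90aa1 was also lost with DESeq2 size factors (0.0525), without a filter (0.0578) and without the pool term (0.0532).

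Markers moved in the same comparison, in which 59.5% of all genes differed. All 5 sustentacular cell markers, all 4 glial markers and all 3 horizontal basal cell markers were lower in the no odour pulldowns, and all 5 erythroid, 4 macrophage and 4 immature neuron markers higher. Summed sustentacular markers, with Cyp2g1 the most abundant, fell from 6795 to 2030 CPM and erythroid markers, led by Hbb-bs, rose from 450 to 2045 CPM between the no odour inputs and pulldowns. Of the mature neuron markers 5 of 7 were higher and 1 lower, of neutrophil markers 4 and 1 of 5, of basal progenitor markers 3 and 1 of 4, of endothelial markers 1 and 2 of 3, of muscle markers 0 and 1 of 4, and of motile cilia markers 3 and 0 of 3. Their part in the depletion of Hspb1, Hspa1b and Bag3 was not tested.

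Odours also moved the pulldown-to-input ratio. The mean of the odours against no odour gave 4 of 8 genes (1 higher, 3 lower; background 25.8%; medians -0.19 and -0.01). NCD gave 3 of 8 (1 higher, 2 lower; background 13.1%; medians -0.19 and -0.00). Bacon gave 2 of 8 (1 higher, 1 lower; background 22.5%; medians -0.11 and 0.00) and HFD 3 of 8 (1 higher, 2 lower; background 15.7%; medians -0.22 and -0.01). Between odours the ratio gave 0 of 8 genes by edgeR and by DESeq2 for HFD against bacon (background 0.109%), HFD against NCD (background 0.0709%) and bacon against NCD (background 0.0283%). At an unadjusted p under 0.05 the counts were 1, 0 and 1, beside 8%, 4.62% and 7.24% of all genes. Hspa1a and Hspa1b did not pass in any ratio comparison of odours, with 0.05 ± 0.15 and 0.36 ± 0.21 for NCD against no odour (edgeR adjusted p = 0.858 and 0.259), so a difference in their rise between input and pulldown was not detected.

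Dnajb1 and Hsp90aa1 had ratios that parted in opposite directions. The ratio of Dnajb1 was 0.901, 0.81, 0.818, 0.721 and 0.973 in the no odour pools and 1.03 to 1.18 (median 1.11) in the NCD pools. It was 1.16, 1.34, 1.48, 1.07 and 1.19 in the bacon pools and 1.02, 1.26, 0.957, 1.03 and 0.895 in the HFD pools. All NCD and bacon pools lay above all no odour pools, and HFD overlapped with them. The ratio of Hsp90aa1 was 1.14, 1.31, 1.19, 1.05 and 1.15 without odour, 0.735 to 0.948 (median 0.815) under NCD, 0.828, 0.841, 0.669, 0.925 and 0.935 under bacon and 1.02, 0.588, 0.73, 0.736 and 0.917 under HFD. Every odour pool lay below every no odour pool. The share of all genes with such a gap in the ratio was not counted, and 25.8% of all genes changed in it over the odours together.

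**Figure D3:**
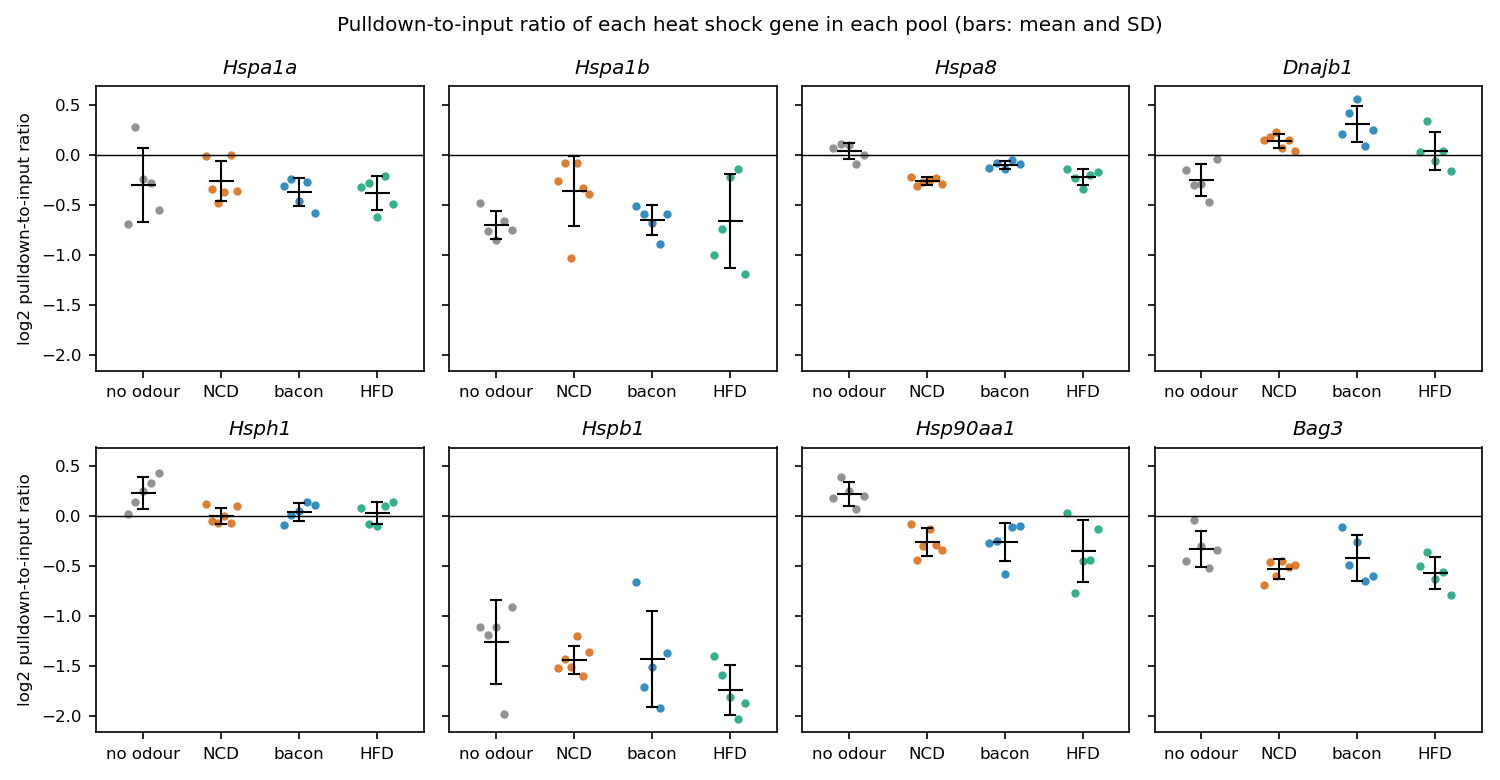
Log2 pulldown-to-input ratio of each gene, by odour, with 1 point per pool and bars of mean and SD. Dnajb1 lies at -0.47 to -0.04 without odour and 0.04 to 0.23 under NCD, and Hsp90aa1 at 0.07 to 0.39 without odour and at most 0.03 in any odour pool.

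For Dnajb1 the ratio rose by a log2 difference of 0.39 ± 0.10 under NCD (edgeR adjusted p = 0.00975, 6 of 6), 0.56 ± 0.10 under bacon (edgeR adjusted p = 0.000386, 5 of 5) and 0.29 ± 0.10 under HFD (edgeR adjusted p = 0.0498, 5 of 5). For Hsp90aa1 it fell by 0.48 ± 0.11 under NCD (edgeR adjusted p = 0.00811, 6 of 6), 0.48 ± 0.12 under bacon (edgeR adjusted p = 0.00502, 5 of 5) and 0.57 ± 0.12 under HFD (edgeR adjusted p = 0.00261, 5 of 5). Hspa8 fell by 0.30 ± 0.07 under NCD (edgeR adjusted p = 0.00697, 6 of 6) and 0.26 ± 0.07 under HFD (edgeR adjusted p = 0.0178, 5 of 5), and Hsph1 by 0.21 ± 0.07 over the odours together (edgeR adjusted p = 0.0225, 16 of 16). The HFD call of Dnajb1 was lost, at adjusted p of 0.0544 to 0.169, without bacon replicate 2 or 5, HFD 1, 2, 3 or 5, any 1 of the 6 NCD pools, or no odour 2, 3 or 4, and that of Hspa8 without HFD replicate 3 (0.0614) or no odour replicate 2 (0.0631). Without a filter both were lost (edgeR adjusted p = 0.0893 for Dnajb1 and 0.0585 for Hspa8), as in the fit on the groups compared only (0.104 each). That of Dnajb1 was also lost with the replicate number as a block (0.112). The Hsph1 call was lost without no odour replicate 4 (0.0871) or 6 (0.103). With the ribosomal RNA share in the model the calls of Hsp90aa1 under bacon (-0.36, 0.111), Dnajb1 under HFD (0.29, 0.0521) and Hsph1 over the odours (-0.18, 0.0607) were lost. The ratio of Hsph1 passed in NCD against no odour (-0.23 ± 0.08, 0.0536 with all pools) without bacon 1 (0.0391), HFD 2 (0.0494), NCD 1 (0.0493) or no odour 1 (0.024), and without no odour 1 also under bacon (0.0375) and HFD (0.0372). By DESeq2 the NCD difference passed with all pools (adjusted p = 0.0274). The ratio of Hspb1 passed in HFD against no odour and over the odours together without bacon 1 (0.0345 and 0.047) or no odour 4 (0.0179 and 0.0368).

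The share of counts from ribosomal RNA genes differed between groups beside these results. It was 24.7 ± 3.62% in the no odour inputs, 14.2 ± 1.98% under NCD, 10.7 ± 1.26% under bacon and 13.9 ± 3.60% under HFD, and 19.1 ± 4.93%, 11.5 ± 3.52%, 11.7 ± 1.04% and 10.5 ± 2.81% in the pulldowns. NCD, bacon and HFD overlapped in it, and no odour stood apart in the inputs (19.21 to 28.06%, beside 9.381 to 18.87% over the odours). The share and odour against no odour can thus hardly be told apart in the inputs. With the share in the model, standard errors of that comparison were larger (Hspa1b over the odours together 0.20, beside 0.10 without it). A call lost there is not read as an effect of the share. Mitochondrial genes held 1.15 to 1.45% of counts in the no odour inputs, above NCD (0.958 to 1.07%) and HFD (0.79 to 1.025%) and overlapping with bacon (0.869 to 1.305%). The part of the mitochondrial share in the results was not tested. With the share as a covariate in the inputs, Hspa1a (1.31, edgeR adjusted p = 0.000146), Hspa1b (1.51, 7.9e-05), Dnajb1 (0.67, 0.000123) and Hsph1 (0.49, 0.00303) still passed for NCD against no odour, and Hspa8 (0.35, 0.201) and Hsp90aa1 (0.13, 0.843) did not. That model called 19 of all 21168 genes for NCD against no odour, beside 4765 without the covariate. In the same model HFD lay below NCD by -1.37 for Hspa1a and -1.21 for Hspa1b (edgeR adjusted p = 3.21e-08 and 3.46e-07), and Dnajb1 (-0.25, 0.0282) and Hsph1 (-0.22, 0.0395) then passed as well. No gene of the 8 passed for the other odours against no odour in that model, in which 9 of all genes were called for bacon and 27 for HFD.

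Of the marker lists, macrophage genes fell in the pulldowns of each odour, 4 of 4 in NCD, bacon and HFD against no odour, from a summed 105 CPM to 61.9, 60.8 and 60.8 CPM, with Csf1r the most abundant. Of the mature neuron markers 4, 3 and 2 of 7 were higher and 0 lower in the NCD, bacon and HFD pulldowns, beside 18.2%, 16.3% and 20.1% of all genes. Their sum, with Omp the most abundant, was 15668 to 19142 CPM without odour, 20581 to 23426 under NCD, 17396 to 24235 under bacon and 18850 to 21834 under HFD, so that only NCD did not overlap with no odour. Basal progenitor markers were lower for 2, 3 and 2 of 4 in the NCD, bacon and HFD pulldowns (133 CPM without odour, then 110, 107 and 118), and immature neuron markers, led by Stmn1, for 1, 3 and 1 of 4 (1258 CPM, then 1098, 982 and 1102). Muscle markers were lower for 1, 0 and 1 of 4 (72.2 CPM, then 39.2, 46.2 and 38.6), and neutrophil markers for 2, 1 and 1 of 5 with 1 higher in each (189 CPM, then 152, 162 and 181). Glial markers in the HFD pulldowns (2 of 4 higher, 1 lower) summed to 89.3 to 109 CPM, above all no odour pulldowns (62.9 to 73.8). In the inputs 22.5%, 38.5% and 20.7% of all genes passed under NCD, bacon and HFD, and the input marker counts stand beside these shares. Macrophage markers were lower for 3, 4 and 2 of 4 (43.4 CPM without odour, then 33.6, 30.9 and 36). Glial markers were lower for 1, 4 and 1 of 4 (157 CPM, then 138, 111 and 134). Immature neuron markers were lower there for 2, 3 and 3 of 4, with 1 higher under NCD (840 CPM, then 796, 679 and 749), and progenitor markers higher for 1, 3 and 2 of 4 (102 CPM, then 117, 130 and 125). In these 4 sums the bacon inputs did not overlap with the no odour inputs. Nor did the NCD inputs in the macrophage sum (32.3 to 34.2 CPM, beside 38.1 to 52.9 without odour). The HFD inputs stood apart in the progenitor sum (118 to 137 CPM, beside 73.2 to 114 without odour). Sustentacular markers gave 1 of 5 higher under NCD and 2 lower under bacon. The part of the markers in the changes of the heat shock genes was not tested. HFD against NCD called 0 of 51 marker genes in the inputs (background 0.241%) and 1 glial gene, higher, in the pulldowns (background 0.987%). At such shares few or no calls are the usual count for 51 genes. The lists hold no immunoglobulin gene, and Igha differed in the inputs of HFD against NCD as given above. Bacon against NCD called 4 in the inputs, all lower (2 glial, 1 immature and 1 mature neuron gene, background 2.41%). In the pulldowns it called 1 neutrophil gene, lower (background 0.402%). Summed glial markers stood at 109 to 114 CPM in the bacon inputs and 125 to 148 in the NCD inputs, and immature neuron markers at 630 to 718 and 775 to 841 CPM, without overlap.

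Next to the 8 genes stood 70 tested genes in 9 lists of other chaperones, co-chaperones and their regulators. Against no odour, NCD inputs gave 9 higher and 7 lower (22.9% of 70, beside 22.5% of all genes; median -0.01, beside -0.02). The counts were 7 and 30 (52.9%, beside 38.5%) for bacon inputs, 7 and 7 (20%, beside 20.7%) for HFD inputs, and for the mean of odours 10 and 19 (41.4%, beside 36.0%; median -0.08). HFD against NCD gave 0 of 70 in the inputs by edgeR (median -0.03, beside 0.01), and bacon against NCD gave 7, all lower as Hspa1a was (10%, beside 2.41% of all genes; median -0.18, beside 0.00). In the model with the ribosomal RNA share 1 of the 70 passed in the latter (1.43%, beside 0.26% of all genes; median -0.10), and 0 in NCD inputs against no odour. Those 7 in the main fit were the J-domain gene Dnaja4 (-0.36 ± 0.07), the HSP90 co-chaperones Ahsa1 (-0.36 ± 0.09) and Fkbp4 (-0.33 ± 0.08), the TRiC chaperonin subunits Tcp1 (-0.19 ± 0.05), Cct3 (-0.30 ± 0.06) and Cct5 (-0.23 ± 0.06), and the mitochondrial chaperonin Hspd1 (-0.24 ± 0.06). In the pulldowns NCD gave 4 and 9 (18.6%, beside 18.2% of all genes), bacon 3 and 16 (27.1%, beside 16.3%) and HFD 7 and 19 (37.1%, beside 20.1%). The direct comparisons gave Cryab higher in HFD than bacon (0.37 ± 0.05) and Dnaja2 lower in HFD than NCD (-0.16 ± 0.04), with 0 for bacon against NCD.

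By list, the inputs of the odours together against no odour gave these counts of higher and lower genes, beside 36.0% of all genes called in either direction. The HSF regulators gave 0 and 2 of 3, with Hsbp1, which binds HSF1 trimers, at -0.33 ± 0.07 and Hsf2 at -0.19 ± 0.06. Other HSP70 and HSP110 genes gave 3 and 0 of 7, with Hspa4 at 0.33 ± 0.08, Hspa12a at 0.25 ± 0.07 and Hspa4l at 0.22 ± 0.05. J-domain genes gave 3 and 2 of 12 (Dnajb14 0.47 ± 0.08, Dnaja1 0.45 ± 0.09, Dnajb6 -0.24 ± 0.06). HSP90 with its co-chaperones gave 3 and 1 of 13 (Unc45a 0.48 ± 0.11, Chordc1 0.18 ± 0.06, Hsp90ab1 0.16 ± 0.05). Small heat shock genes gave 0 and 4 of 6 (Hspb2 -0.80 ± 0.20, Hspb11 -0.75 ± 0.15, Cryab -0.29 ± 0.08) and HSP70 adaptors 0 and 3 of 8 (Stub1 -0.48 ± 0.07, Hspbp1 -0.37 ± 0.08, Bag2 -0.26 ± 0.07). TRiC gave 0 and 1 of 8 (Cct3 -0.19 ± 0.05) and mitochondrial chaperones 0 and 2 of 7 (Grpel1 -0.51 ± 0.08, Hspe1 -0.38 ± 0.10). Ubiquitin and other HSF1-linked genes gave 1 and 4 of 6 (Hmox1 -0.38 ± 0.07, Serpinh1 -0.38 ± 0.09, P4ha1 0.28 ± 0.07). All of these named genes passed at an adjusted p under 0.05 in the main fit, and none did with the ribosomal RNA share in the model. That model called 0 of the 70 genes and 13 of all 21168 in this comparison, beside 7622 without the covariate.

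Lists of endoplasmic reticulum stress genes and of immediate early genes were set beside them. Endoplasmic reticulum stress genes gave 2 higher and 5 lower of 17 in NCD inputs against no odour, 3 and 8 under bacon and 2 and 4 under HFD, beside 22.5%, 38.5% and 20.7% of all genes, with Hspa5, the HSP70 of that compartment, at 0.51 ± 0.07 over the odours together, Ddit3 at -0.67 ± 0.07 and Manf at -0.47 ± 0.07. Immediate early genes, which neurons switch on when active, gave 5 and 2 of 15, 5 and 4, and 5 and 2 beside the same shares, with Fos at 1.54 ± 0.09, Nr4a1 at 1.27 ± 0.08 and Egr1 at 0.86 ± 0.05 over the odours together. Those 3 still passed with the ribosomal RNA share in the model (1.72, 1.45 and 1.02), and 0 of 17 endoplasmic reticulum stress genes did in the inputs of any comparison. In the pulldown-to-input ratio the named genes were Dnajb9 (-0.88), Xbp1 (-0.74), Manf (0.68), Nr4a1 (1.39), Egr1 (0.93) and Fosb (1.83) without odour, and Xbp1 (0.56), Hspa5 (-0.41), Atf4 (0.63), Btg2 (0.48), Ier2 (0.31) and Egr1 (0.25) over the odours together. Between odours 1 immediate early gene differed in the inputs, Fosb, which was higher under bacon than NCD (0.91 ± 0.15) and lower under HFD than bacon (-1.11 ± 0.16), the opposite order to that of Hspa1a under bacon and NCD.

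Pulldown-to-input ratios without odour differed for 44 of the 70 chaperone genes (21 higher, 23 lower; 62.9%, beside 59.5% of all genes), and over the odours together changed for 19 (10 higher, 9 lower; 27.1%, beside 25.8%). Those shares lie near the background. Without odour, the named genes higher in the pulldown were Unc45a (1.14), Hspa1l (0.97), Bag1 (0.93), Dnajc2 (0.82), Stub1 (0.68), Fkbp5 (0.60), Dnajb12 (0.47), Hsf1 (0.46), Dnajb2 (0.44), Hsbp1 (0.41), Hspa2 (0.39) and Hspe1 (0.38). Those lower were Hspa13 (-1.30), Hspb8 (-0.97), Hspb2 (-0.90), P4ha1 (-0.55), Chordc1 (-0.50), Ubb (-0.47), Cryab (-0.44), Bag5 (-0.44), Serpinh1 (-0.40), Hsf2 (-0.36), Cct4 (-0.35), Cct8 (-0.35), Trap1 (-0.25), Cct5 (-0.22) and Hspa9 (-0.14). Over the odours together the 10 genes with a higher ratio were Hspb11 (0.63), Grpel1 (0.61), Hspe1 (0.58), Hsbp1 (0.47), Stub1 (0.36), Hspb6 (0.34), Bag2 (0.31), Hspbp1 (0.29), Dnajb2 (0.22) and Sugt1 (0.22). The named genes with a lower ratio, like Hsp90aa1 and Hspa8, were Dnajb14 (-0.37), Hspa4 (-0.36), Stip1 (-0.33), Hspa2 (-0.32), Hsp90ab1 (-0.30), Dnaja1 (-0.27), Hspa4l (-0.23) and Clpb (-0.23). Over the odours together 7 were higher and 8 lower with the ribosomal RNA share in the model (21.4%, beside 22.5% of all genes). Dnaja1 (edgeR adjusted p = 0.078), Dnajb2 (0.0634), Bag2 (0.0881), Hspbp1 (0.0914) and Clpb (0.0631) then lost their calls. Without odour that model gave 17 higher and 18 lower (50%, beside 49% of all genes). Of the genes named without odour, Hspb2 (-0.93, edgeR adjusted p = 0.0619), Ubb (-0.35, 0.067), Trap1 (-0.15, 0.223) and Hspa9 (-0.10, 0.133) lost theirs.

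The genes whose levels most resembled the mean of the 8 over the 21 inputs were Tspyl4 (Pearson correlation 0.904), Rangap1 (0.858), Sap18 (0.851), Actr8 (0.844) and Gm26825 (0.842), and over the 21 pulldowns Ksr2 (0.842), Stam (0.771), Zmynd11 (0.762), Cyfip2 (0.737) and Ndrg4 (0.731). These correlations are descriptions over libraries that fall into odour groups and share kit and tissue. Their own steps were smaller than that of Hspa1a: in NCD inputs against no odour Tspyl4 rose by a log2 fold change of 0.21 ± 0.05, Rangap1 by 0.27 ± 0.05 and Sap18 by 0.24 ± 0.06 (edgeR adjusted p = 0.00478, 0.000869 and 0.00426), and Actr8 (0.11, 0.124) and Gm26825 (0.20, 0.0924) did not pass. In NCD pulldowns against no odour Ndrg4 passed (0.13 ± 0.05, edgeR adjusted p = 0.0461), and Ksr2 (0.11, 0.0884), Stam (0.11, 0.124), Zmynd11 (0.04, 0.527) and Cyfip2 (0.04, 0.542) did not. Set against the mean of Hspa1a and Hspa1b alone, a target chosen after their values were seen, the nearest genes were Atp6v1a (0.846) and Tfrc (0.841) in the inputs and Ubp1 (0.818) and Slc25a5 (0.810) in the pulldowns.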

How the data were processed

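The 42 libraries are an input and a pS6 pulldown of each of 21 pools, sequenced after 1 h of odour. The authors quantified reads with Salmon within the nf-core rnaseq pipeline on GRCm38 and deposited expected counts (estimated counts) per gene; the authors also used DESeq2 1.26. Of the deposited values 30.9% differed from the nearest whole number, with a tolerance of 0, and counts were rounded here. Names came from GENCODE M21 for 44118 of 44674 genes; the 556 unnamed genes, with 0.525% of counts, were kept.

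Tests ran in R 4.3.3 with edgeR 4.0.16 (robust quasi-likelihood, TMM, limma 3.58.1), and DESeq2 1.42.0 as an alternative; tables were made with python 3.11.15, pandas 2.3.3 and numpy 2.4.6, and figures with matplotlib 3.10.9. The low-count filter (minimum count 10 over 8 groups of odour and library) kept 21168 genes. Inputs and pulldowns were each fitted alone on 21 libraries, and the pulldown-to-input ratio on all 42 with a term for the pool. The methods text and not the data gives the pairing of pulldown and input within a pool: deviations from the group means correlated with a median of 0.0142 over 21 pools. P-values were adjusted over all genes tested by Benjamini-Hochberg, with calls at an adjusted p under 0.05. Log2 levels used a prior count of 2. The fits were tested on simulated counts with known changes.

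Inputs had a median of 31457188 counts and pulldowns 30313284; the spread between pools (biological coefficient of variation) was 11.7% in inputs, 13.6% in pulldowns and 12% in the ratio fit. Hspa1a and Hspa1b were counted least, down to 60.7 counts in inputs and 30.5 in pulldowns for Hspa1b.

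The 8 genes, the 9 lists of chaperones, the 2 lists of endoplasmic reticulum stress and immediate early genes and the 12 lists of cell markers were chosen with earlier results of these data known. Named are all 8 genes, up to 3 genes per chaperone, endoplasmic reticulum stress or immediate early list with the smallest p among those called for pulldown against input without odour, ratio over the odours and inputs over the odours, and the 5 genes with the highest Pearson correlation to the mean z-score of the 8 over inputs and over pulldowns. Hspa14 was listed but was not in the table, and Hsf4, Hsf5, Hspb3, Hspb9 and Tnnt3 had too few counts to be tested. Alternatives tried were DESeq2, its size factors, no low-count filter, a threshold of 0.001, ribosomal RNA genes left out or their share as a covariate, summed Hspa1a and Hspa1b, the replicate number as a block, no pool term, only the groups compared, plain CPM, a prior count of 0.5, and each of 21 pools left out in turn.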

Additional observations from a re-analysis of the deposited data

Results flagged for a closer look

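Of 96 groups of pools (each gene, odour and measure), 10 held a pool far from the others, where chance gives about 1 in 20 groups. Hspb1 stood at 63.5 CPM in the input of no odour replicate 4, against 32.8 to 37.4 in the other no odour pools, and its log2 pulldown-to-input ratio there was -1.98 against -1.19 to -0.91. Its pulldown in that pool was 16.1 CPM, within the group, so the step is in the input alone. That input was also the highest no odour input for Hspa1b (2.65 CPM), Hspa8 (1373), Dnajb1 (228), Hsph1 (88.9), Hsp90aa1 (342) and Bag3 (62.1). It was not the highest for Hspa1a (4.43). Its ribosomal RNA share (28.06%) was the highest of all libraries. Whether the pool differs in tissue taken or in the animals cannot be told apart. Hspa1b stood at 8.17 CPM in the input of NCD replicate 3, against 5.6 to 6.21, with a log2 ratio of -1.03 against -0.39 to -0.08. Its copy Hspa1a stood at 12.2 CPM in that input, within the 11.2 to 13.6 of the NCD group, and how reads were split between the copies was not tested.

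The other pools far from their group are given as values. Hspa8 stood at 1386 CPM in the input (others 1180 to 1238) and 1339 in the pulldown (others 1078 to 1152) of bacon replicate 4. In the same pool the Hsph1 input was 104 CPM (others 92.2 to 94.3). Hsp90aa1 stood at 313 CPM in the pulldown of NCD replicate 6 (others 353 to 364). Bag3 stood at 53.6 CPM in the pulldown of no odour replicate 2 (others 43.3 to 44.5) and at 53.7 CPM in that of bacon replicate 1 (others 40.6 to 43.3).

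The effect of a single odour against no odour differed between pulldown and input, by the edgeR test of that difference, for 3 genes. NCD against no odour gave log2 differences of -0.30 for Hspa8, 0.39 for Dnajb1 and -0.48 for Hsp90aa1. Bacon gave 0.56 for Dnajb1 and -0.48 for Hsp90aa1, and HFD gave -0.26 for Hspa8, 0.29 for Dnajb1 and -0.57 for Hsp90aa1.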

How the results depend on the processing

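For NCD against no odour and for HFD or bacon against NCD, Hspa1a and Hspa1b kept direction and call in inputs and pulldowns under every alternative, and Dnajb1 kept both for NCD against no odour at an adjusted p under 0.05. DESeq2 size factors, and leaving out ribosomal RNA genes, kept all 22 counts of genes called within 1.5 times, and dropping the pool term all 8 it bears on. For counts that moved further the cause was not tested.

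With an adjusted p under 0.001 the counts were 3 for pulldown against input without odour (7 before); in the ratio 2 for the odours together, 0 for NCD, 1 for bacon and 0 for HFD; in the inputs 2, 3, 0 and 1 in that order; and in the pulldowns 2 for the odours together and 1 for bacon. With the ribosomal RNA share as covariate they were 4 without odour, 1 for the ratio under bacon, 0 in the inputs for the odours together, bacon and HFD, 4 for HFD against NCD in the inputs, and 1 for bacon in the pulldowns. There Hsp90aa1 reversed in the inputs of the odours together (-0.05, edgeR adjusted p = 0.975). Without a filter the ratio under HFD gave 1. Fits on the groups compared only gave 1 for the ratio under HFD, 1 for HFD and 2 for HFD against bacon in the inputs, and 1 for bacon, 3 for HFD and 5 for HFD against NCD in the pulldowns. DESeq2 gave 3 for HFD against bacon in the inputs and 2 for HFD in the pulldowns. Summing Hspa1a and Hspa1b gave 1 for HFD against NCD in the inputs, since the pair then counts as 1.

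The labels do not say whether replicate numbers pair pools across odours. Same-numbered pools correlated with a median of 0.02 in inputs (3 of 27 pairs over 0.1) and 0.00919 in pulldowns (2 of 27). Pulldown and input of 1 pool, which are paired, had a median of only 0.0142 (1 of 21 over 0.1). This measure therefore cannot decide whether the numbers pair pools. With the number as a replicate block the counts were 4 without odour, 1 for bacon in the inputs and 1 for bacon in the pulldowns.

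Without each pool in turn the counts ranged from 5 to 7 without odour; in the ratio 3 to 5 (odours together), 3 to 4 (NCD), 2 to 3 (bacon), 1 to 4 (HFD) and 0 to 0 between odours; in the inputs 4 to 6, 6 to 7, 1 to 3 and 2 to 5 in that order, then 0 to 3 (HFD against bacon), 2 to 3 (HFD against NCD) and 4 to 6 (bacon against NCD); in the pulldowns 3 to 5, 4 to 4, 1 to 2, 1 to 3, 0 to 0, 3 to 3 and 3 to 5. Hspb1 in the inputs of the odours together ranged from -0.09 to 0.19 and reversed without no odour replicate 4 (0.19, edgeR adjusted p = 0.0389). Plain CPM moved 15 of 64 group means by over 1 SD.

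The share of all called genes that were higher moved by over 10 points with DESeq2 in the ratio for HFD against bacon (42.1% for 13.0%) and bacon against NCD (27.3% for 83.3%), in the inputs for HFD against NCD (62.4% for 74.5%) and bacon against NCD (43.0% for 58.2%), and in the pulldowns for HFD against NCD (55.8% for 71.8%). With the covariate it moved in the ratio for bacon against NCD (100% for 83.3%) and in the inputs for the odours together (92.3% for 48.2%), NCD (94.7% for 50.6%), bacon (100% for 48.5%), HFD (88.9% for 52.9%) and bacon against NCD (70.9% for 58.2%). The alternatives for single genes in NCD against no odour and between odours were added after the data were seen. Depth was lowest for Hspa1b, with a median of 60.6 counts in the pulldowns; its part in the standard errors was not tested.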
